A study of Mus musculus with 4 samples.

Results

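The 9 genes described here are Kng1, Kng2, Hp, Trf, A2m, C3, C4b, Cp and Saa3. Most of them encode proteins of blood plasma that the liver makes in bulk, though Saa3 does not. Here the genes were read in cells of mouse bone and marrow. They were picked by name, from 32285 genes in the deposited tables, because earlier results of the same data had shown them in marrow stromal cells, so their levels across cell groups and between ages are given as descriptions with no test. The rule that set the cells used here kept barcodes with at least 200 genes and at most 20% mitochondrial molecules.

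The cells came from 1 young mouse (6 months) and 1 old mouse (24 months), both untreated and both of the INK-ATTAC genotype, a transgene that places an inducible caspase 8 under the p16Ink4a promoter. As neither mouse received the drug that activates it, both groups carried the transgene and neither was cleared of p16Ink4a-expressing cells. Marrow of femur and tibia was digested with Liberase and the emptied bone with collagenase, the fractions were joined, red cells were lysed, cells bearing blood lineage markers were depleted magnetically, and live CD45- cells were sorted. Each mouse gave a pair of libraries, an mRNA library (10x 3′ single-cell RNA-seq) and one of antibody tags for the surface protein CD24. With 1 mouse per age, the mouse, the library and the age cannot be told apart, and intervals on counts below are 95% intervals that cover counting error only.

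In the liver, several of these genes belong to the acute-phase response, in which IL-6 and IL-1 act through STAT3, NF-κB and C/EBP factors on their promoters. Kininogens release bradykinin when kallikrein cuts them, haptoglobin binds free hemoglobin, transferrin carries iron, ceruloplasmin carries copper and oxidises iron for loading onto transferrin, and α2-macroglobulin traps proteases. C3 and C4 are the central proteins of the complement cascade, and serum amyloid A3 is an acute-phase protein made largely outside the liver. Marrow stromal cells, which express the leptin receptor, adiponectin and CXCL12, form much of the niche of blood stem cells.

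After filtering, 10063 of 11371 young barcodes and 5607 of 6729 old barcodes remained, with medians of 6385 and 9711 UMIs (unique molecular identifiers, 1 per captured mRNA molecule) per cell, and 25 barcode sequences occurred in both libraries. Cells were assigned to a group by counting how many of 8 marker genes of each type they held. The groups are called "-like", and none of the 9 genes was a marker. Marrow stromal-like cells numbered 3138 (young) and 1956 (old), fibroblast-like cells 3053 and 1433, and osteoblast-like cells 988 and 547. Erythroid-like cells numbered 550 and 453, and neutrophil-like cells 125 and 235, although the magnetic depletion and the sort were meant to remove blood cells. The stromal group was set by its 8 markers, so their higher level there is no check of the label. Levels are given in CPM (a gene's UMIs scaled to all UMIs of the group). Of these markers, Adipoq stood at 1232 and 2037 CPM in stromal-like cells of the young and old mouse. In the other mesenchymal groups together it stood at 8.49 and 6.20, and all 8 markers were higher in stromal-like cells in both mice. No endothelial-like cell met the rule, and 1026 young and 589 old cells were left unassigned.

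Of the 9 genes, promoter windows from RefSeq (GRCm38.p6, the build family of the authors' mm10 alignment) were on hand for Kng2, C3, Cp and Saa3. The upstream 150 bases of Kng2 and C3 are shown because these genes had opposite distributions: Kng2 UMIs lay almost wholly in stromal-like cells, and C3 UMIs mostly in fibroblast-like cells. Kng2 lies on the minus strand of chromosome 16 and C3 on the minus strand of chromosome 17, so the windows chr16:23029102-23029251 and chr17:57228137-57228286 are given 5′ to 3′ in the direction of transcription and end at the base before the annotated start. Capitals mark each match, on either strand, to TTNNGNAA, a C/EBP-type motif.
Kng2: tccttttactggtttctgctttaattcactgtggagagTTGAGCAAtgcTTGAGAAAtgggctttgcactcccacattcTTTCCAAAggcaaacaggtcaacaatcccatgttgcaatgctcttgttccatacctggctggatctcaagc
C3: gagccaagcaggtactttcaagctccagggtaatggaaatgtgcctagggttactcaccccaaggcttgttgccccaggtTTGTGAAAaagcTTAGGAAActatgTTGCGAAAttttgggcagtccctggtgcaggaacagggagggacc
Both windows held 3 such octamers. In Kng2 they began 112, 101 and 71 bases before the start, and in C3 70, 58 and 45 bases before it. The octamer TTGCGAAA of C3 read as a match on both strands. Over the 250 upstream bases Kng2 had 3 matches, C3 had 4 with that octamer counted on each strand, Saa3 had 4, among them TTATGCAA from 99 to 92 bases before the start, and Cp had 1 in each of 2 annotated windows, of which TTTTGCAA lay 70 to 63 bases before the second start. The second window of Cp and the window of Saa3 lay inside a longer annotated gene model, and the first window of Cp lay partly inside one. Of 32851 windows of that length in the table, 36.8% held the motif, so a match alone is common. A STAT-type motif, TTCNNNGAA, present in 7.02% of windows, was in none of the 4 genes' windows. TATAAA, present in 7.59%, was found once, in the second window of Cp.

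Kng1 and Kng2, neighbouring kininogen genes on chromosome 16 (23058220 to 23082078 and 22985852 to 23029101, RefSeq coordinates on GRCm38.p6, as for the genes that follow), were found mostly in stromal-like cells. Kng1 stood at 389 CPM in stromal-like cells of the young mouse and at 470 CPM in those of the old one. In fibroblast-like cells it stood at 1.98 and 1.83, and in osteoblast-like cells at 1.48 and 3.01. Stromal-like cells were thus 213-fold (interval 169 to 273, young) and 212-fold (167 to 273, old) above the other mesenchymal groups together, and they held 96.6% and 97.4% of all Kng1 UMIs. Kng2 stood at 421 and 612 CPM in stromal-like cells and at 7.01 and 14.3 in fibroblast-like cells, a level above that of osteoblast-like cells (2.96 and 4.89) beyond counting error. Its fold over the other mesenchymal groups was 74.8 (65.5 to 85.9) for the young mouse and 56.7 (50.8 to 63.4) for the old one. No Kng2 UMI was seen in chondrocyte-like cells of either mouse. The 2 genes are near copies of each other, so the aligner may have split or dropped reads that fit both, and their separate levels are less certain than their sum.

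Shares of cells in which a gene was seen were compared after every cell was thinned to 2000 UMIs, since the old cells were read more deeply (stromal-like medians 5310 and 8340.5 UMIs). Kng1 was then seen in 49.98% of young and 54.9% of old stromal-like cells (71.9% and 77.3% before thinning), and Kng2 in 53.4% and 64.8% (76.2% and 84.2% before). Erythroid-like cells, which should not make kininogen, served as a reference for free RNA. Kng1 was seen in 0.748% and 0.464% of them after the same thinning, and Kng2 in 0.561% and 0.232%. They were read at medians of 18250 and 18449 UMIs, against 2651 and 4165 in neutrophil-like cells. A given amount of free RNA is a smaller part of a deeper cell, so this reference may be too low for shallower groups. Besides stromal-like cells, only young neutrophil-like cells (13.2 CPM, 4.86 to 28.8, on 6 UMIs) had a Kng1 level whose interval lay above that of erythroid-like cells. Young neutrophil-like cells also carried 955 CPM of stromal markers, against 103 in young erythroid-like cells. The part of this in their Kng1 level was not tested. The Kng1 intervals of the other groups, fibroblast-like and osteoblast-like cells included, overlapped that of erythroid-like cells in both mice. The young Kng1 log2 ratio of 7.74 over other mesenchymal cells became 8.33 with a lead of 2 markers required of each group.

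**Figure D1:**
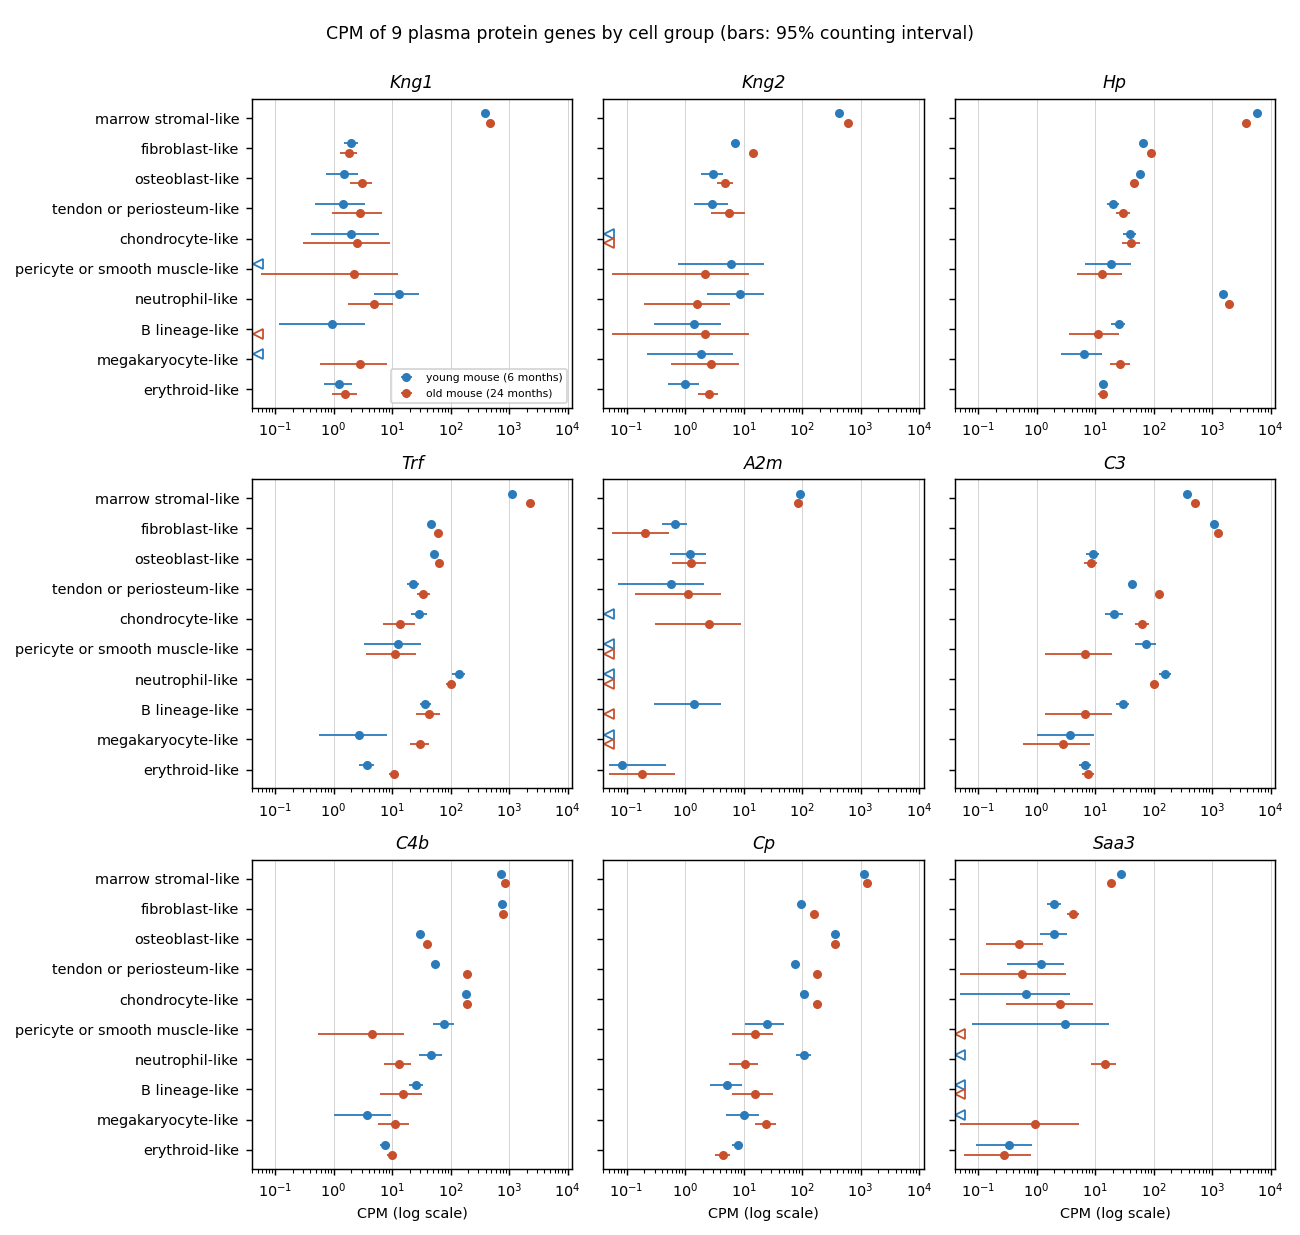
CPM (log axis) of each gene in 10 cell groups, for the young mouse (blue) and the old mouse (red). Points are summed levels, bars 95% counting intervals and open triangles at the left edge groups with no UMI. Kng1, Kng2, Hp, Trf and A2m peak in marrow stromal-like cells, Hp has a second peak in neutrophil-like cells, and C3 is highest in fibroblast-like cells.

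Haptoglobin, which binds hemoglobin set free from broken red cells, was seen in nearly all stromal-like cells and in neutrophil-like cells as well. Hp (chromosome 8, 109575128 to 109579172) stood at 5963 CPM in young and 3737 in old stromal-like cells. The group second in order was neutrophil-like cells, at 1559 CPM (interval 1446 to 1678) when young and 1941 (1864 to 2020) when old; haptoglobin is known there as a granule protein. The stromal-like level was therefore 3.82-fold above the neutrophil-like level in the young mouse and 1.93-fold above it in the old mouse, while it stood 100.5-fold (96.5 to 105) and 50.9-fold (48.8 to 53.1) above the other mesenchymal groups. After thinning, Hp was seen in 94.4% and 89.7% of stromal-like cells and in 89.1% and 87.6% of neutrophil-like cells. In erythroid-like cells the thinned share was 3.93% and 3.48%, and in fibroblast-like cells 8.02% and 12.5%.

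Neutrophil-like cells carried 955 CPM of stromal markers (young) and 244 (old), against 32188 and 30707 in stromal-like cells. Stromal-like cells in turn carried 593 and 706 CPM of neutrophil markers, against 50602 and 47169 in neutrophil-like cells. The part of these in the Hp values, and in the Trf values that follow, was not tested.

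Trf, encoding the iron carrier transferrin (chromosome 9, 103208876 to 103230286), stood at 1119 and 2236 CPM in stromal-like cells. In neutrophil-like cells, second in order in both mice, it stood at 139 (107 to 178) and 102 (84.9 to 121). Osteoblast-like cells followed at 51.4 and 63.0 and fibroblast-like cells at 47.2 and 59.8, and the intervals of these neighbours overlapped in both mice. The fold over the other mesenchymal groups was 24.9 (23.8 to 26.2) and 39.0 (37.2 to 40.97). Thinned shares of stromal-like cells with a Trf UMI were 58.8% and 70.1%, against 0.374% and 1.16% of erythroid-like cells.

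Cp, encoding ceruloplasmin (chromosome 3, 19956933 to 20009750), was shared between stroma and bone-forming cells. It stood at 1147 and 1277 CPM in stromal-like cells and at 371 and 367 in osteoblast-like cells, a 3.09-fold (2.97 to 3.22) and 3.48-fold (3.35 to 3.62) difference. Fibroblast-like cells had 95.4 and 162, and chondrocyte-like cells 110 and 183. It was seen in 83.8% and 87.7% of thinned stromal-like cells, in 30.6% and 38.7% of osteoblast-like cells and in 0.935% and 0.464% of erythroid-like cells. Stromal-like cells held 74.8% and 71.9% of its UMIs.

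A2m, named for the broad protease inhibitor α2-macroglobulin (chromosome 6, 121636165 to 121679238), was as narrowly distributed as the kininogens but seen in fewer stromal-like cells. It stood at 90.5 and 83.6 CPM there, 123-fold (85.5 to 185) and 142-fold (89.7 to 241) above the other mesenchymal groups, and no UMI was seen in neutrophil-like or megakaryocyte-like cells of either mouse. These folds rest on few UMIs outside the stroma: the young log2 ratio of 6.94 became 8.15 when groups had to lead by 2 markers, and the old one of 7.15 became 6.49 after thinning. Only 12.2% and 10.6% of thinned stromal-like cells had a UMI of it.

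The complement genes were the members that stromal-like cells did not dominate. C3 (chromosome 17, 57203967 to 57228136) stood at 377 and 509 CPM in stromal-like cells and at 1072 and 1242 in fibroblast-like cells, 2.84-fold higher for the young mouse and 2.44-fold higher for the old one. Fibroblast-like cells held 76.8% and 71.2% of its UMIs. The thinned shares were 36.5% and 45.8% of stromal-like, 61.7% and 60.5% of fibroblast-like and 1.495% and 1.39% of erythroid-like cells. C4b (chromosome 17, 34728139 to 34743902) was close to even between the 2 groups, at 717 and 867 in stromal-like and 752 and 790 in fibroblast-like cells. The fibroblast-like level was 1.05-fold higher in the young mouse, and the stromal-like level 1.10-fold higher in the old. C4b also stood at 183 and 194 in chondrocyte-like cells, above the 30.4 and 40.0 of osteoblast-like cells beyond counting error. Chondrocyte-like cells, 167 and 51 in number, carried 10089 and 14244 CPM of osteoblast markers beside 11447 and 9465 of their own. Of them 29.3% and 49.0% led by only 1 marker, so the 2 groups are not cleanly apart. C4b has a near-identical neighbour, C4a, at 34809092 to 34823460, whose reads may be counted with it.

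Saa3 (chromosome 7, 46711998 to 46719615) behaved unlike the rest, because few cells held it. The young stromal-like cells had 535 UMIs in 87 of 3138 cells, and the old had 312 in 59 of 1956. The 14 young cells with at least 10 UMIs held 66.4% of the total, and 1 cell alone held 117 UMIs. In the old mouse 7 such cells held 75.3% and the top cell 111 UMIs. The group levels of 28.1 and 19.0 CPM, 14.8-fold and 6.46-fold above other mesenchymal cells, therefore rest on few cells. The old log2 ratio of 2.69 became 3.40 after thinning and 4.25 with a lead of 2 markers. Neutrophil-like cells of the old mouse had 14.6 CPM (8.63 to 23.0, on 18 UMIs), which the stromal-like level there (16.9 to 21.2) did not exceed beyond counting error. In the old fibroblast-like cells 63 of 83 UMIs came from 1 cell. Saa1 and Saa2, related genes, can share reads with Saa3.

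Counting the members together, 7 of 9 were at least 2-fold higher in stromal-like than in other mesenchymal cells in both mice, C3 and C4b being the exceptions. Over all 13313 genes with enough UMIs to be compared the share was 11.3%, but the members had been chosen for this pattern and nothing is read from the excess. The median gene was itself 0.19 (log2) higher in young stromal-like cells and 0.23 higher in old ones, a shift that lies well under every called ratio. Among genes ranked by fold over all other kept cells, Hp, Kng1 and Kng2 were in the stromal-like top 10 (young) and Kng1, Kng2 and Trf (old).

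Many stromal-like cells held several of the genes at once. In thinned stromal-like cells the median number of the 9 genes seen was 5 in both mice, 57.8% of young and 68.4% of old cells had at least 5, and 1.75% and 1.37% had none. In fibroblast-like cells the median was 2, and 0.301% and 1.64% had at least 5. In erythroid-like cells 91.4% and 92.8% had none. Within stromal-like cells, however, the genes followed each other only loosely: over the 36 pairs, Spearman's rho across thinned cells ran from -0.14 to 0.32, with Hp and Trf at 0.22 (young) and 0.32 (old) and Hp and A2m at -0.14 and -0.10. All these cells share 1 library per mouse, and at 2000 UMIs most counts are low, so these values describe the cells and nothing more is drawn from them.

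**Figure D2:**
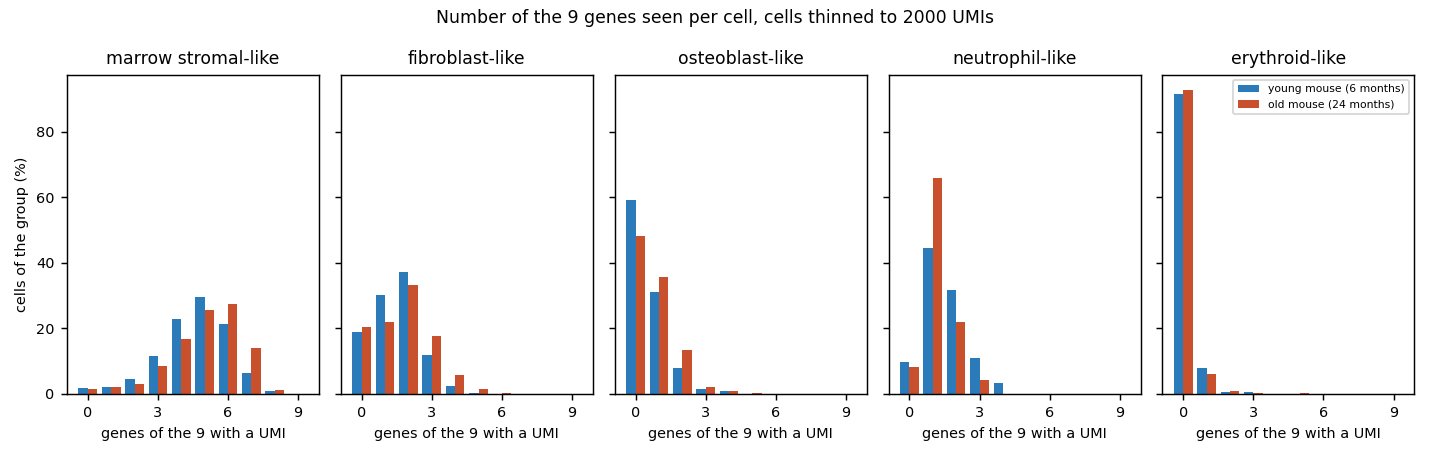
Share of cells (%) by how many of the 9 genes had at least 1 UMI, in 5 cell groups of the young (blue) and old (red) mouse, every cell thinned to 2000 UMIs. Stromal-like cells centre on 5 genes, while 91.4% and 92.8% of erythroid-like cells had none.

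Between the ages, haptoglobin and transferrin moved in opposite directions in stromal-like cells. Hp went from 5963 to 3737 CPM, 1.60-fold lower in the old mouse (log2 -0.67, interval -0.69 to -0.66). Trf went from 1119 to 2236 (log2 1.00, 0.97 to 1.02), just short of a full 2-fold. Kng2 was 1.46-fold higher (log2 0.54, 0.50 to 0.58) and C3 1.35-fold higher (0.43, 0.39 to 0.48). Kng1 and C4b both differed by a log2 of 0.27, Cp by 0.16 (0.13 to 0.18) and A2m by -0.11 (-0.22 to -0.01). Saa3 was 1.48-fold lower (-0.56, -0.77 to -0.36), and without the top cell of each mouse its log2 difference was -0.84. Beside these differences, the osteoblast marker sum of stromal-like cells went from 7861 to 5209 CPM and the stromal one from 32188 to 30707, and the part of this in the members' values was not tested.

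No member passed 2-fold in either direction, while 1.35% of 11954 genes compared in stromal-like cells were at least 2-fold higher and 1.1% at least 2-fold lower in the old mouse. At a limit of 1.5-fold, added after the values were seen, Trf was higher and Hp lower, with a background of 4.32% higher and 3.29% lower. Among 11400 genes with at least 50 UMIs in both sums, whose median log2 difference was 0.03, Trf lay at percentile 99.2, Kng2 at 96.0 and C3 at 93.7, and Hp at 1.25 and Saa3 at 2.03. Age differences of these genes were known when the members were picked, so these places are descriptions as well.

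**Figure D3:**
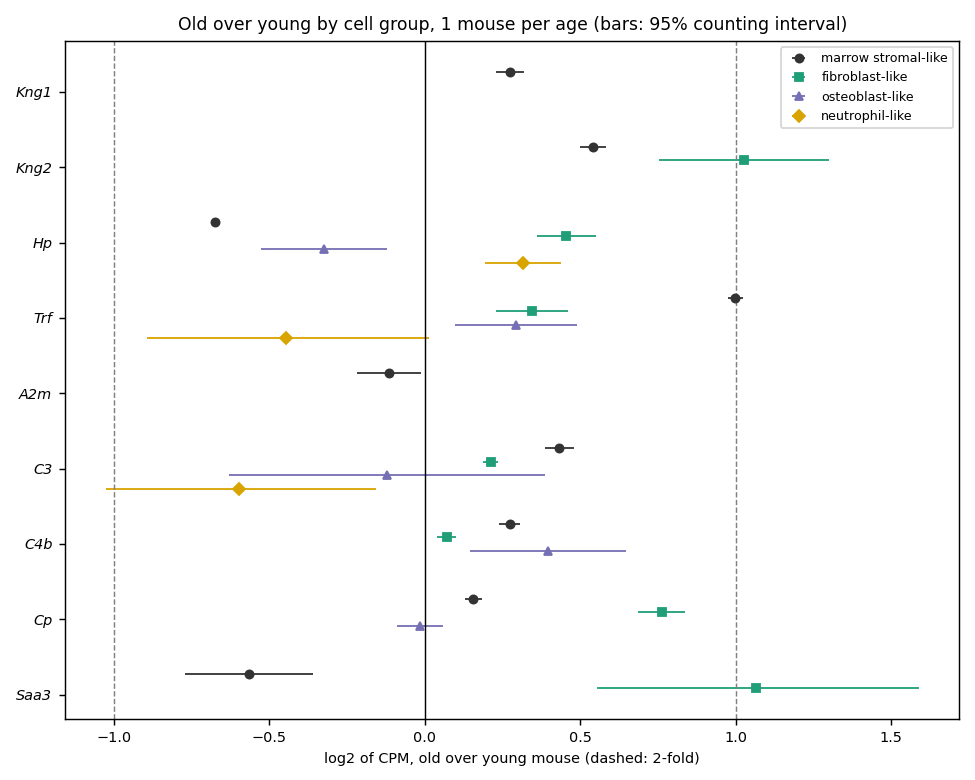
Log2 of old over young CPM, by gene and cell group, for ratios with at least 50 UMIs in both mice (bars, 95% counting interval; dashed lines, 2-fold). Hp is lower in old stromal-like cells (log2 -0.67) and higher in fibroblast-like (0.46) and neutrophil-like cells (0.32), and Trf is higher in old stromal-like cells (1.00).

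The change in Hp and Trf was spread over the cells rather than held by a few. In thinned stromal-like cells the median went from 10 to 5 Hp UMIs and the 90th percentile from 25 to 16, and cells without any Hp went from 5.55% to 10.3%. For Trf the median went from 1 to 3 UMIs, the 90th percentile from 6 to 11, and cells without any from 41.2% to 29.9%. A cell had more Hp than Trf UMIs in 86.8% (85.5 to 88.0) of young and 59.1% (56.8 to 61.5) of old cells, and more Trf than Hp in 6.18% and 29.0%. In this 3′ assay a molecule gives 1 UMI whatever its length, but capture differs by gene, so the comparison is between mice and not between the 2 genes.

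**Figure D4:**
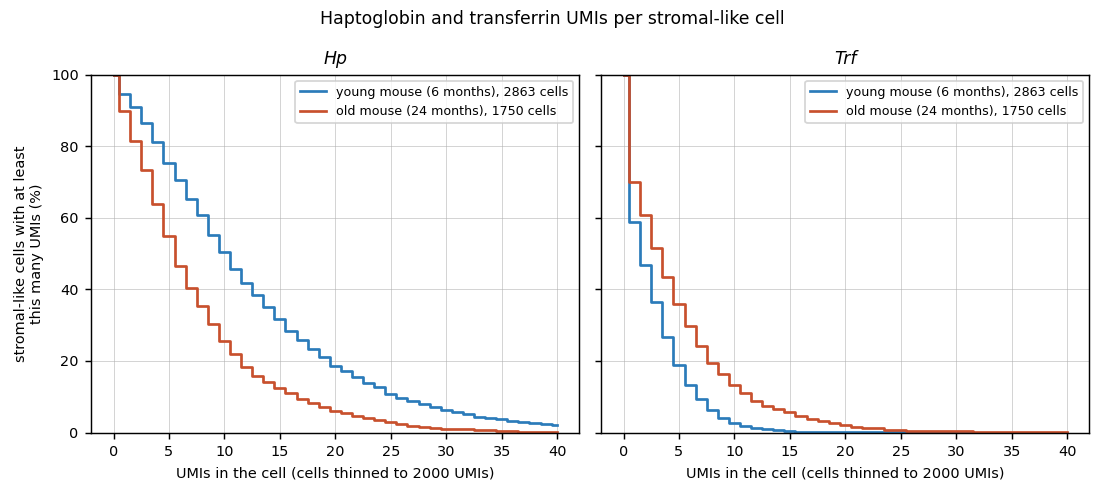
Share of stromal-like cells (%) with at least the number of Hp (left) or Trf (right) UMIs on the horizontal axis, every cell thinned to 2000 UMIs, 2863 young cells (blue) and 1750 old cells (red). The old curve lies below the young one for Hp (medians 5 and 10 UMIs) and above it for Trf (medians 3 and 1).

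Hp was lower and Trf higher in the old mouse in every subset of stromal-like cells made by splitting the thinned cells on a UMI of Cxcl14, Grem1, Adipoq, Lepr, Il6 or Spp1. In Adipoq-positive cells Hp differed by a log2 of -0.72 and Trf by 0.89. In Adipoq-negative cells Hp went from 4731 to 1504 CPM, a log2 difference of -1.65 (-1.76 to -1.55), and Trf from 682 to 912 (0.42, 0.26 to 0.58). Adipoq itself went from 1232 to 2037 CPM in stromal-like cells, so cells without its UMI need not be like sets in the 2 mice. Across thinned cells Hp (Spearman's rho 0.17 young and 0.40 old) and Trf (0.19 and 0.29) rose with Adipoq. The part of this in the differences was not tested. In Spp1-positive cells the values were -0.81 for Hp and 0.87 for Trf, and in Spp1-negative cells -0.57 and 1.18. Only the Trf difference in the few Il6-positive cells (32 young and 33 old) had an interval that spanned 0 (0.44, -0.05 to 0.94).

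Several genes also differed between such subsets within 1 mouse. A2m was 2.64-fold higher in Adipoq-positive than Adipoq-negative young stromal-like cells. In the old mouse Hp was 2.59-fold, Trf 2.61-fold and Kng1 2.37-fold higher in Adipoq-positive cells. In the young mouse the corresponding values for Trf and Kng1 were 1.89 and 1.69. Stromal-like cells that led by only 1 marker (170 young and 128 old) had 1961 and 1050 Hp CPM, against 6324 and 3946 in the remainder. The cells nearest to the limit of the group thus held less Hp.

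Outside the stroma, cells were also split on genes chosen by hand, and only some of these splits are given. In those given, C3, C4b and Cp differed in the same direction in both mice. Among fibroblast-like cells, C3 was 2.59-fold (young) and 2.30-fold (old) higher in those with a UMI of the collagen gene Col6a5, and Cp was 2.58-fold and 2.31-fold lower in those with a UMI of Pi16, a marker of a fibroblast subset. C4b was 2.01-fold and 2.02-fold higher in fibroblast-like cells with a Cxcl12 UMI. Among osteoblast-like cells, Cp was 4.73-fold and 5.80-fold lower where Tnn, the gene for tenascin-W, was seen. Tendon or periosteum-like cells of the old mouse had more C3 (42.6 to 125 CPM), C4b (53.1 to 189) and Cp (76.4 to 179). In these cells the osteoblast marker sum went from 2307 to 938 CPM, the fibroblast one from 837 to 1043 and the stromal one from 460 to 615. They numbered 515 (young) and 158 (old), of which 31.5% and 39.2% led by only 1 marker. The part of this in the differences was not tested.

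For each member the genes with the most similar profile were sought over 20 points, 10 cell groups in 2 mice, by Pearson's r of log2(CPM + 1) among 14589 genes. Kng1 was nearest to Cbln1 (0.96), Adipoq (0.96) and Mrap (0.95). Kng2 was nearest to Gm4951 (0.96), Crym (0.95) and 9330117O12Rik (0.94), and Trf to Gm4951 (0.91), Esm1 (0.91) and H2-D1 (0.89). Hp was nearest to Cldn1 (0.96), Ccl9 (0.94) and Csprs (0.93), and A2m to Gm48050 (0.97), 3100003L05Rik (0.96) and Scgb3a1 (0.96). These lists hold the stromal markers Adipoq and Esm1. C3 and C4b lay near each other (0.86) and both near Sfrp1 (0.91 and 0.93), with Sult5a1 (0.90) for C3 and Serpina3n (0.95) and Maob (0.92) for C4b. Cp was nearest to Ghr (0.94), Pcdhga7 (0.93) and Lmo7 (0.93), and Saa3 to Ankef1 (0.91), Cxcl9 (0.82) and Ccl9 (0.82). The points share 2 libraries and rest on a few groups with high values.

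Related genes were read from 5 lists. Of all 11400 genes with at least 50 stromal-like UMIs in both mice, 5.04% were at least 4-fold higher in stromal-like than other mesenchymal cells in both. Of 30 other complement genes, 5 had no stromal-like UMI in either mouse, 16 had at least 50 in both, and 3 of these 16 passed that limit. Between the ages, 2 were at least 2-fold higher and 2 at least 2-fold lower of 17 compared, beside 1.35% and 1.1% of all genes. C6, a component of the membrane attack complex, was 114-fold and 85.2-fold above other mesenchymal cells and went from 191 to 77.9 CPM in stromal-like cells (log2 -1.30). C2, the protease partner of C4, was 15.4-fold and 5.16-fold above them, and Vtn, encoding the complement regulator vitronectin, went from 7.40 to 15.6 (1.08). Cfd, encoding the adipocyte protease adipsin, went from 0.944 to 5.35 (2.50, on 18 and 88 UMIs), and Cd55, a complement inhibitor of the cell surface, from 15.9 to 7.12 (-1.16).

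Of 27 other acute-phase and iron-binding genes, 14 had at least 50 stromal-like UMIs in both mice, 8 of these passed the 4-fold limit, and 2 of 14 compared were at least 2-fold higher in the old mouse, none lower. Il1rn, the interleukin-1 receptor antagonist, went from 153 to 347 CPM in stromal-like cells (log2 1.18) and was 155-fold and 135-fold above other mesenchymal cells. The iron exporter ferroportin, Slc40a1, was 7.39-fold and 9.20-fold above them. Saa1, Saa2 and Orm1 passed the limit at levels between 3.36 and 10.6 CPM. Ltf, encoding lactoferrin, was 114-fold and 113-fold above other mesenchymal cells at 34.6 and 55.5 CPM. It is, however, a neutrophil marker, and blood groups had 81.4 and 172. Blood groups are pooled, here and below, and erythroid-like cells gave 12047412 and 10731414 of their UMIs. Neutrophil-like cells gave 453458 and 1236272, so the pooled level dilutes that of a neutrophil gene.

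Of 31 other liver plasma protein genes, 12 had no UMI in stromal-like cells of either mouse and 4 had at least 50 in both. Of these Apoe, encoding apolipoprotein E, stood at 4354 and 5250 CPM, 9.49-fold and 5.82-fold above other mesenchymal cells, and Apoc1 at 6.51 and 14.7 (log2 age difference 1.17). Rbp4, the retinol carrier, went from 13.7 to 28.7 (1.06) and stood at 49.0 and 33.2 in other mesenchymal cells. Among 19 receptors and partners of the members none of 11 compared passed 2-fold between ages, and the 3 of 11 at least 4-fold higher in stromal-like than other mesenchymal cells, C5ar1, Itgam and Itgb2, were below 10 CPM there and higher in blood groups.

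Of 20 genes that induce the acute phase, 17 had at least 50 stromal-like UMIs in both mice, and 3 of these passed the 4-fold limit. Cebpa, the C/EBP factor of liver and fat, stood at 157 and 165 CPM in stromal-like cells against 14.1 and 16.1 in other mesenchymal cells. Il1b (61.7 and 41.4) and Osm (6.66 and 5.23) passed as well, with 167 and 505 Il1b CPM in blood groups. The summed neutrophil markers of stromal-like cells (593 and 706) and of fibroblast-like cells (4.85 and 51.5) are given beside Ltf, Il1b, Osm, Itgam and Itgb2. Ltf, Itgam and Itgb2 were at higher levels in the old stromal-like cells, as the neutrophil sum was, and Il1b and Osm at lower ones. The part of neutrophil RNA in these values was not tested. Il6 went from 10.4 to 21.3 CPM (log2 1.04) in stromal-like cells and was lower there than in other mesenchymal cells, where it stood at 90.5 and 114.

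The antibody tag allowed the one comparison that was tested, with each mouse giving a value. CD24, a small surface glycoprotein, divided stromal-like cells into 161 CD24+ and 2977 CD24- cells from the young mouse, and 53 and 1903 from the old one. UMIs were summed per mouse and status, and the 4 sums were compared by edgeR's quasi-likelihood test with the mouse as a block. Of 13594 genes, 5.0% were higher and 1.27% lower in CD24+ cells at an adjusted p under 0.05, and 5 of the 9 genes were among the lower and none among the higher. Cd24a, the gene of the antigen, was higher in CD24+ cells by a log2 of 3.17 ± 0.19 (SE, n = 2 mice, edgeR adjusted p = 1.7e-15). The cells had been split on the protein this gene encodes, so that outcome was largely set in advance and nothing is read from it.

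C3, the hub of the complement cascade, differed most. It stood at 261 CPM in CD24+ and 389 in CD24- cells of the young mouse and at 240 and 520 in the old, a log2 difference of -0.82 ± 0.15 (edgeR adjusted p = 0.00016). Hp stood at 4708 and 6088 CPM in the young mouse, and at 2763 and 3778 in the old one (-0.39 ± 0.08, edgeR adjusted p = 0.00043), but its sign turned (0.08) with the CD24 threshold set over stromal-like cells alone. Both were lower in CD24+ cells of each mouse with intervals that did not overlap. Trf (-0.39 ± 0.10, edgeR adjusted p = 0.010) and C4b (-0.44 ± 0.12, edgeR adjusted p = 0.019) were lower in each mouse too. Cp (-0.34 ± 0.11) was at the threshold, with an edgeR adjusted p of 0.0499 and one of 0.068 under DESeq2-type size factors.

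The remaining members gave values without a call. Kng2 differed by -0.38 ± 0.14 (edgeR adjusted p = 0.10), with -0.67 for the young mouse and -0.13 for the old one. Kng1 differed by -0.26 ± 0.14 (edgeR adjusted p = 0.36), A2m by -0.01 ± 0.15 (0.99) with opposite signs in the 2 mice (-0.31 and 0.32), and Saa3 by -0.41 ± 0.31 (0.61) with 1 UMI in the old CD24+ cells.

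Most of these calls depended on the settings. With doublets called by Scrublet removed, C3 (-0.96) was the only member called lower, while the log2 differences of Hp (-0.36), Trf (-0.39) and C4b (-0.47) stayed close to the values above. With DESeq2 C3 was again the only call, and those of Hp (-0.39), Trf (-0.38) and C4b (-0.43) were close as well. Without the mouse as a block no member was called, C3 having an edgeR adjusted p of 0.137 at a log2 difference of -0.84, beside -0.44 for C4b, -0.41 for Trf and -0.38 for Hp. The CD24 threshold did move the values. C3 was the only call with the threshold set over stromal-like cells alone (-0.32), where Hp was 0.08, Trf -0.04 and C4b -0.05, and in the top 10% by antibody (-0.57), where Hp was -0.14, Trf -0.15 and C4b -0.20. With every cell thinned to 2000 UMIs, C3 (-0.63) and Kng1 (-0.58) were called, and Hp was -0.27. Other measures moved with CD24 status. CD24+ cells were read more deeply (medians 9022 against 5137 UMIs in the young mouse, 10652 against 8282 in the old one), 20.5% against 3.16% of young and 3.77% against 1.42% of old cells were called doublets, and their stromal marker sum was 23956 against 33010 and 23158 against 31022 CPM. Their B lineage marker sum was 196 against 6.69 and 72.9 against 2.34, and their erythroid one 158 against 45.8 and 623 against 31.0. The part of these in the differences of the members was not tested beyond the alternatives named.

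**Figure D5:**
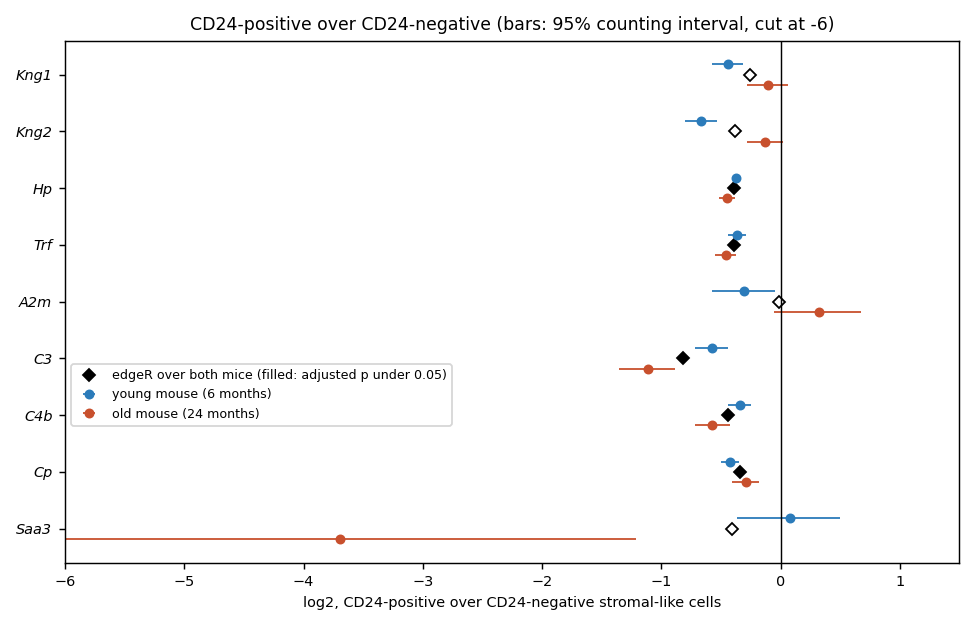
Log2 of CD24+ over CD24- stromal-like cells for the 9 genes: the edgeR estimate over both mice (diamonds, filled where the adjusted p is under 0.05) and each mouse's own ratio of CPM (circles, bars 95% counting interval). Filled diamonds mark Hp, Trf, C3, C4b and Cp, and C3 lies furthest from 0 at -0.82.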

How the data were processed

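The authors aligned the reads to mm10 with Cell Ranger (6.1.1 per the file headers; the study's methods name another release) and deposited 2 matrices of raw UMI counts, with genes and the CD24 antibody as rows. The submitters' processing notes also list R 4.0.3 and Seurat 4.0, whose output was not used here. Barcodes with at least 200 genes and at most 20% mitochondrial UMIs were kept. A cell joined a type when it held at least 3 of that type's 8 markers, led every other type by at least 1 marker and had at least 3 marker UMIs, and this rule was set after the data were seen. Scrublet (in scanpy 1.11.5) called 269 young (2.67%) and 57 old (1.02%) doublets, of which 127 of the young ones were stromal-like, and they were kept in the values reported. For shares, cells were thinned to 2000 UMIs, which left out 770 young and 496 old cells.

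Levels are CPM over the summed group. Intervals are exact Poisson (levels), Clopper-Pearson (shares) and conditional binomial (ratios), at 95%, for counting error only. CD24 status was set by Otsu's threshold on log antibody counts of all kept cells (above 312 young and 396 old). The sums were tested in R 4.3.3 with edgeR 4.0.16 (TMM, filterByExpr, Benjamini-Hochberg over 13594 genes, two-sided, 1 residual degree of freedom before moderation), DESeq2 1.42.0 being an alternative. Counts were also simulated for 13289 genes, with a fixed dispersion and the same means in both mice. Of 200 4-fold changes 81.5% were recovered, and 1.21% of calls were false. The members' differences were smaller than 4-fold and doublets were not simulated, so these rates do not carry over to the members' calls. The same mouse gave both sums, which is why the mouse was a block.

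Members and lists were chosen with earlier results of these data known. Genes were named by rule: the 9 members, and per list up to 6 genes past 2-fold between ages (at least 50 UMIs in 1 sum) or at least 4-fold higher in stromal-like cells in both mice, plus the 3 most similar profiles per member. The genes used to split cell groups were chosen by hand outside this rule. More such splits were run than are reported, without a set rule for which to report. Depth was 81076421 UMIs in young and 66702846 in old kept cells.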

Additional observations from a re-analysis of the deposited data

Results flagged for a closer look

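The age difference of 3 members had the opposite sign in stromal-like cells and in another group, in each case with at least 50 UMIs in both mice. With 1 mouse per age none of these differences could be tested. Hp, lower in old stromal-like cells (log2 -0.67), was higher in old fibroblast-like cells (0.46, interval 0.36 to 0.55), in old tendon or periosteum-like cells (0.57, 0.03 to 1.10, on 53 and 70 UMIs) and in old neutrophil-like cells (0.32, 0.19 to 0.44). Beside these stand the stromal marker sums, which went from 1485 to 2108 CPM in fibroblast-like, from 460 to 615 in tendon or periosteum-like and from 955 to 244 in neutrophil-like cells, and whose part in the Hp values was not tested. C3, higher in old stromal-like cells (0.43), was lower in old neutrophil-like cells (-0.60, -1.03 to -0.16, on 128 and 71 UMIs). The stromal marker sum of neutrophil-like cells (955 to 244 CPM) stands beside this value too, as does their fibroblast one (245 to 205). The part of these sums in the C3 value was not tested. Saa3, lower in old stromal-like cells (-0.56), was higher in old fibroblast-like cells (1.07, 0.56 to 1.59), where 1 old cell held 63 of 83 UMIs and 1 young cell 29 of 54. Without those top cells the value was 0.12.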

How the results depend on the processing

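The count of 7 members at least 2-fold higher in stromal-like cells held under all 6 alternatives run. The count past 2-fold between ages, 0, became 1 at 10% mitochondrial UMIs (Trf, 1.01), 1 after thinning (Saa3, -1.10) and 2 at a limit of 1.5-fold, added after seeing the data; no member's age ratio changed sign, with Hp ranging from -0.78 to -0.67 and Trf from 0.90 to 1.01.

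For CD24, 5 members were lower. The count was 1 with the threshold set over stromal-like cells alone, 1 in the top 10% by antibody, 1 with DESeq2, 1 with doublets removed, 2 after thinning and 0 with no replicate block, against 4 with RLE factors and 6 without a filter. All-gene calls, 852, were 82 with no replicate block, 178 after thinning, 245 with DESeq2, 281 with doublets removed and 539 with the stromal threshold. Signs turned for Hp (0.0825), Kng1 (0.0868) and Kng2 (0.0454) with the stromal threshold, for A2m with DESeq2 (0.0152), doublets removed (0.0702) and no replicate block (0.0026), and for Saa3 after thinning (0.85); the cause was not tested. Leaving out either mouse gives a ratio with no test: C3 -1.12 to -0.58, Hp -0.45 to -0.37, Trf -0.46 to -0.36, C4b -0.57 to -0.34, Cp -0.42 to -0.29, Kng1 -0.44 to -0.10, Kng2 -0.67 to -0.13, A2m -0.31 to 0.32 and Saa3 -3.70 to 0.08. With 1 mouse per age, no depth makes the age values testable, and at 535 and 312 UMIs Saa3 is the least precise member. Of the single-gene ratios recomputed under the alternatives, 40 age values stayed within the counting interval of the reported value and 14 did not, and 65 stromal values stayed within it and 43 did not, without a change of sign.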
